A study of Danio rerio with 4 samples.

Results

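Genes of retinoic acid synthesis, breakdown, binding and reception were compared between cells that express a reporter of nkx2.5 and the remaining cells of the same zebrafish embryos. The genes were 10 listed symbols: aldh1a2, cyp26a1, cyp26b1, cyp26c1, rdh10a, dhrs3a, crabp2a, raraa, rarab and rarga. Of these, 6 were matched to 1 Ensembl gene ID each. For the other 4 symbols (rdh10a, dhrs3a, crabp2a and rarga) the annotation used here gives the names RDH10, DHRS3, CRABP2 and RARG, and each of these names is held by 2 IDs. Nothing in the tables used here tells which of the 2 IDs is the listed paralogue, so both were described. If reads of such paralogues were alike, the authors' quantification could have divided them between the IDs. In all, 14 of the 25873 gene IDs in the deposited table are covered.

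Retinoic acid is a signal made from vitamin A that spreads between cells and acts on nuclear receptors. Retinol dehydrogenases such as Rdh10 oxidise retinol to retinaldehyde, Dhrs3 enzymes carry out the reverse step, and Aldh1a2 oxidises retinaldehyde irreversibly to retinoic acid. The Cyp26 enzymes break retinoic acid down, Crabp proteins bind it inside the cell, and retinoic acid receptors (Rar) bind DNA as partners of retinoid X receptors (Rxr). In zebrafish, retinoic acid from the trunk mesoderm is known to restrict the number of cardiac progenitors, and Cyp26 activity in the anterior embryo is known to keep its level low there.

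The embryos carried Tg(nkx2.5:ZsYellow), a transgene that places the fluorescent protein ZsYellow under regulatory sequence of nkx2.5, a homeobox gene of heart and pharynx, in a background described only as a laboratory strain. They were dissociated at 14 to 16 somites and sorted. The labels call the ZsYellow-positive fraction cardiopharyngeal progenitors and cardiomyocytes; the ZsYellow-negative fraction was all other cells of those embryos, a mixture of many tissues. Each fraction had 2 replicates, and the labels do not say that these came from separate sorts, so p-values measure the spread between these samples, which may be technical. Both fractions came from carriers of the transgene. In bulk RNA of this kind, fewer cells of a type and less RNA per cell cannot be told apart.

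Library totals ran from 31996733 to 40133331 counts. The gene behind the reporter, NKX2-5 (ENSDARG00000018004), was measured at 425.6 and 513.5 CPM (counts scaled to 1000000 per library) in positive libraries and at 5.75 and 5.77 CPM in negative ones. Of 17 tested IDs on a list of cardiac and cardiopharyngeal markers, 16 were higher and 1 was lower (log2 ratio -1.91) in positive cells. That list includes NKX2-5 itself, the gene whose reporter was used for the sort. The edgeR quasi-likelihood test called 3262 of 19084 tested genes, or 17.1%, at a Benjamini-Hochberg adjusted p under 0.05 over all genes tested. It called 9.02% of the genes higher and 8.07% lower, and the median log2 ratio over all genes tested was -0.009. Changes are given as log2 ratios of positive over negative cells with their standard errors (SE).

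All 14 IDs passed the filter on low counts. Positive cells had more RNA of an RDH10 ID, aldh1a2, cyp26c1 and a RARG ID, and less of cyp26a1, cyp26b1 and both CRABP2 IDs. These are 4 IDs called higher (28.6%, against 9.02% of all genes tested) and 4 called lower (28.6%, against 8.07%). The other 6 IDs were not called. Counted by listed symbol, 2 to 4 of the 10 were higher, depending on which RDH10 and RARG IDs are rdh10a and rarga, and 3 were lower whichever ID is taken. The median log2 ratio of the 14 IDs was -0.09. In 11 of the 14 (78.6%) the positive and negative libraries did not overlap, against 58.3% of all genes tested.

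**Figure D1:**
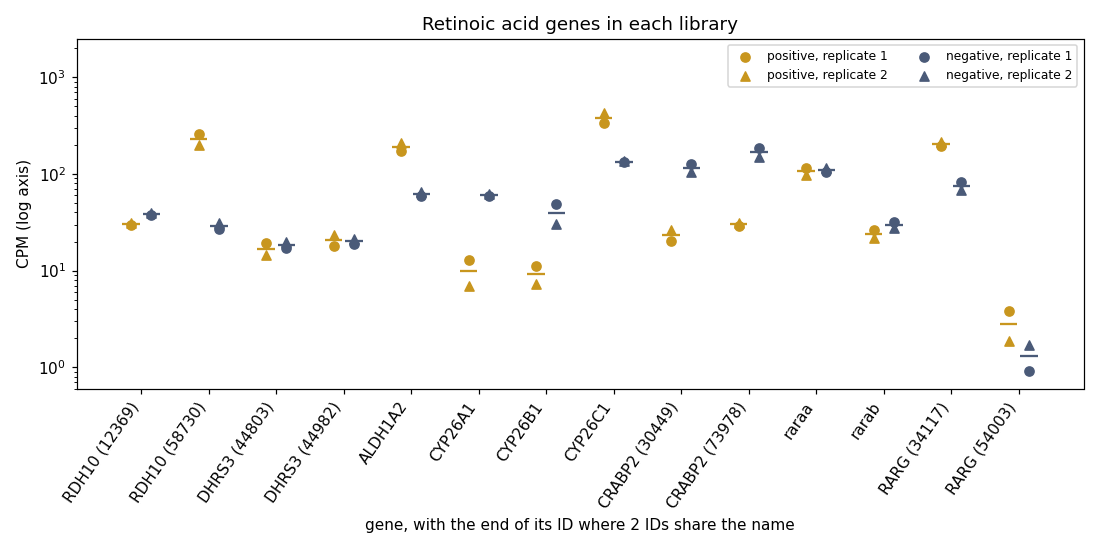
CPM (log axis) of the 14 gene IDs in each of the 4 libraries, ordered from retinol oxidation to receptors. Points are single libraries, short lines are means of 2, and digits in brackets are the end of the ID where a name is shared. The groups lie apart for aldh1a2, all 3 CYP26 genes, both CRABP2 IDs, RARG ENSDARG00000034117 and RDH10 ENSDARG00000058730. They lie just apart for rarab, RARG ENSDARG00000054003 and RDH10 ENSDARG00000012369, and overlap for raraa and both DHRS3 IDs.

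The retinol dehydrogenase step was where the largest increase was found. RDH10 ENSDARG00000058730 was measured at 260.8 and 197.5 CPM in positive libraries and at 27.1 and 31.2 CPM in the negative ones. Both positive libraries were far above both negative ones, with a log2 ratio of 2.97 ± 0.209 (SE, edgeR adjusted p = 4.62e-05), which was higher than that of 99.1% of the genes tested. The second RDH10 ID, ENSDARG00000012369, was measured at 29.9 and 31.0 CPM in positive and 37.7 and 39.4 CPM in negative libraries. Its libraries did not overlap, but the difference was small and was not called (log2 ratio -0.34 ± 0.166 SE, edgeR adjusted p = 0.21). Whether rdh10a itself was higher therefore turns on which ID it is. On the length-corrected TPM scale (transcript abundance scaled to 1000000 per library), the first ID was 6.42 and 4.68 times as abundant as the second in positive libraries and 0.529 and 0.589 times in negative ones. The 2 IDs thus exchanged their order of abundance between the fractions. With 2 libraries against 2, the smallest two-sided exact permutation p of any such ratio is 0.333, so ratios and shares are given here without a test.

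The 2 DHRS3 IDs encode enzymes that return retinaldehyde to retinol, and dhrs3a is known as a gene that retinoic acid induces in zebrafish. DHRS3 ENSDARG00000044982 was measured at 18.0 and 23.1 CPM in positive and 18.9 and 21.2 CPM in negative libraries. DHRS3 ENSDARG00000044803 was measured at 19.2 and 14.6 CPM in positive and 17.3 and 19.8 CPM in negative libraries. The groups overlapped for both, and neither was called, with a log2 ratio of 0.04 ± 0.205 for the first (SE, edgeR adjusted p = 0.929) and of -0.14 ± 0.214 for the second ID (SE, edgeR adjusted p = 0.723). Their summed level was 28.6 and 31.6 TPM in the positive and 31.2 and 31.2 TPM in the negative libraries. The result is the same for dhrs3a whichever ID it is: no difference beyond the spread between replicates was found.

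The retinaldehyde dehydrogenase gene aldh1a2 (named ALDH1A2, ENSDARG00000053493) encodes the main retinoic acid synthesising enzyme of the early embryo. Counts of 5404 and 8231 were found in positive and 2147 and 2180 in negative libraries, or 173.5 and 209.4 CPM against 59.6 and 64.5 CPM. Every positive library exceeded every negative one. Means were 191.4 ± 25.4 CPM with the reporter and 62.0 ± 3.44 CPM without it (SD, n = 2 each), a 3.1-fold difference (log2 ratio 1.63 ± 0.181 SE, edgeR adjusted p = 0.000407). The related gene ALDH1A3 (ENSDARG00000076933), which is not among the 10 symbols and makes retinoic acid in the eye and ear, moved the other way. ALDH1A3 was measured at 1.89 and 2.52 CPM in positive and 8.75 and 8.52 CPM in negative libraries (log2 ratio -1.96 ± 0.272 SE, edgeR adjusted p = 0.00133). Of the summed TPM of these 2 genes, aldh1a2 made up 98.4% and 98.3% in positive libraries and 82.4% and 83.7% in negative ones.

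The 3 genes of the retinoic acid degrading cytochromes moved in different directions. The gene cyp26c1 (CYP26C1, ENSDARG00000056029) was counted 10405 and 16864 times in positive and 4750 and 4575 times in negative libraries, or 334.0 and 429.1 CPM against 131.9 and 135.3 CPM. The positive libraries were both higher, with a log2 ratio of 1.51 ± 0.191 (SE, edgeR adjusted p = 0.000784), or 2.86-fold. In contrast, cyp26a1 (CYP26A1, ENSDARG00000033999) was counted 403 and 271 times in positive and 2154 and 2106 times in negative libraries. Its level was 12.9 and 6.89 CPM in the positive libraries, which differed from each other more than the negative ones did, and 59.8 and 62.3 CPM in the negative libraries. The gene was lower in positive cells by a log2 ratio of -2.63 ± 0.283 (SE, edgeR adjusted p = 0.000352), below that of all but 0.833% of the genes tested. Leaving out positive replicate 1 gave -3.12 and leaving out positive replicate 2 gave -2.24, and the gene was called in both fits.

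The third gene of the family, cyp26b1 (CYP26B1, ENSDARG00000077121), was measured at 11.1 and 7.28 CPM in positive and 48.7 and 30.6 CPM in negative libraries. It too was lower in both positive libraries than in either negative one, with a log2 ratio of -2.11 ± 0.289 (SE, edgeR adjusted p = 0.00125). Since cyp26c1 was the most abundant of the 3 in positive cells, the summed level of the family did not follow cyp26a1 and cyp26b1. The sum was 112.0 and 147.1 TPM in the positive and 108.2 and 93.0 TPM in the negative libraries, a ratio of means of 1.29. Within that sum, cyp26c1 made up 88.8% and 94.8% in positive libraries and 40.8% and 43.3% in negative ones. The share of cyp26a1 was 8.07% and 3.57% in positive libraries and 43.4% and 46.5% in negative ones. In TPM, cyp26c1 was 11.0 and 26.6 times as abundant as cyp26a1 in positive libraries and 0.941 and 0.931 times in negative ones, whereas cyp26c1 and aldh1a2 kept a similar proportion to each other, at 1.5 and 1.6 against 1.74 and 1.67. Such sums, shares and ratios depend on the length correction of TPM. By CPM, cyp26c1 was above cyp26a1 in the negative libraries as well (131.9 and 135.3 against 59.8 and 62.3 CPM).

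**Figure D2:**
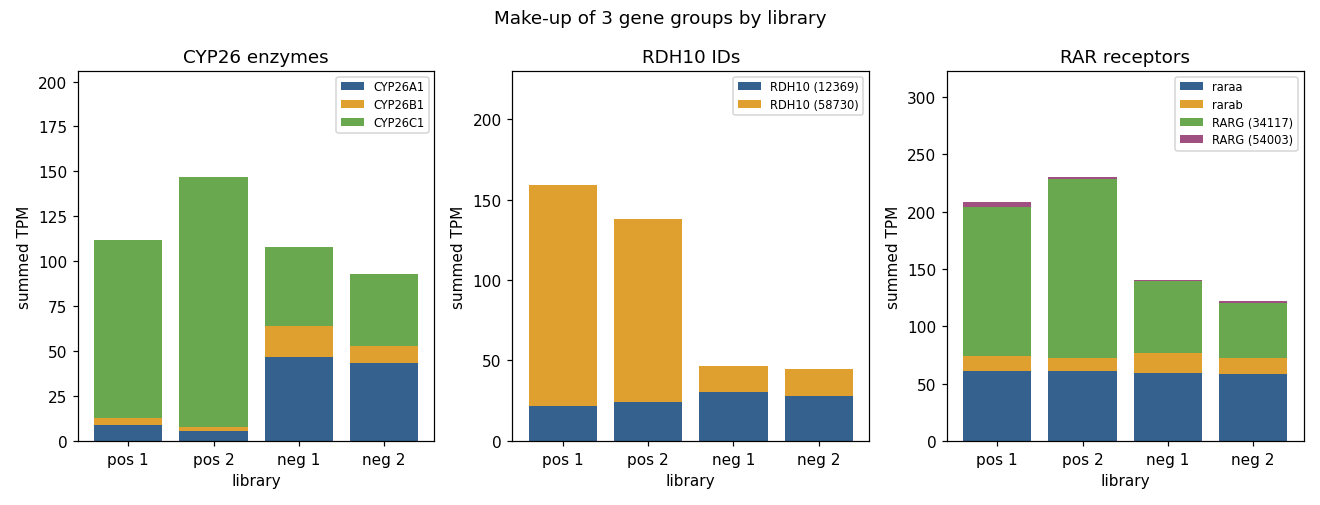
Summed TPM of the 3 CYP26 genes, the 2 RDH10 IDs and the 4 IDs of retinoic acid receptors in each library (pos, ZsYellow-positive; neg, ZsYellow-negative; digits are replicates). Colours are single gene IDs. The green cyp26c1 segment fills 88.8% and 94.8% of the positive CYP26 bars, and the level of raraa is between 58.1 and 61.1 TPM in every library.

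The CRABP2 IDs, whose proteins bind retinoic acid in the cytoplasm and are known to pass it to its receptors, were both lower in positive cells. CRABP2 ENSDARG00000073978 was measured at 29.0 and 31.3 CPM in positive and 186.2 and 148.7 CPM in negative libraries. CRABP2 ENSDARG00000030449 was measured at 20.2 and 26.5 CPM in positive and 126.9 and 104.9 CPM in negative libraries. The lowest negative library was 4.75 and 3.96 times the highest positive one for these IDs. The log2 ratio was -2.47 ± 0.19 for the first (SE, edgeR adjusted p = 6.63e-05) and -2.31 ± 0.206 for the second ID (SE, edgeR adjusted p = 0.000136), so crabp2a was lower whichever ID it is. The 2 IDs also kept a similar proportion in TPM, the first being 2.06 and 1.69 times as abundant as the second in positive and 2.11 and 2.03 times in negative libraries.

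Among the retinoic acid receptors, a RARG ID was higher in positive cells and 3 other IDs were not called. RARG ENSDARG00000034117 was counted 6017 and 8406 times in positive and 2957 and 2285 times in negative libraries, or 193.2 and 213.9 CPM against 82.1 and 67.6 CPM. The positive libraries were both higher (log2 ratio 1.44 ± 0.182 SE, edgeR adjusted p = 0.000793), or 2.72-fold. RARG ENSDARG00000054003 was a low gene, with 118 and 73 counts in positive and 33 and 57 in negative libraries. Its positive libraries were above its negative ones, but the change was not called (log2 ratio 1.11 ± 0.457 SE, edgeR adjusted p = 0.138). It passed the threshold without positive replicate 2 (1.54, edgeR adjusted p = 0.00314) and was 0.55 without positive replicate 1. The receptor gene raraa (ENSDARG00000056783) was measured at 115.2 and 97.8 CPM in positive and 104.0 and 114.3 CPM in negative libraries. The groups overlapped and the log2 ratio was -0.04 ± 0.173 (SE, edgeR adjusted p = 0.92). For rarab (ENSDARG00000034893) the values were 26.3 and 22.0 CPM against 31.5 and 27.9 CPM. The groups lay just apart, and the gene was not called (log2 ratio -0.30 ± 0.188 SE, edgeR adjusted p = 0.332).

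On the TPM scale, the 4 IDs of retinoic acid receptors summed to 208.8 and 230.7 TPM in the positive and 140.6 and 122.4 TPM in the negative libraries, a ratio of means of 1.67. RARG ENSDARG00000034117 supplied 62.6% and 67.6% of that sum in positive cells and 44.3% and 39.4% in negative cells. The share of raraa was 29.3% and 26.5% against 42.3% and 47.5%, although its level in TPM was alike in the 4 libraries. Of 5 tested IDs of the partner receptors, the retinoid X receptors, rxrgb (ENSDARG00000004697) was called higher, at 15.8 and 14.1 CPM in positive and 7.47 and 9.88 CPM in negative libraries (log2 ratio 0.78 ± 0.229 SE, edgeR adjusted p = 0.0475). Its adjusted p lay close to the threshold, and it lost its call when negative replicate 1 (0.59, edgeR adjusted p = 0.276) or negative replicate 2 (1.01, edgeR adjusted p = 0.0877) was left out. The call of rxrgb was also lost with upper-quartile factors (0.68, edgeR adjusted p = 0.0786) and with the replicate number as a block (0.79, edgeR adjusted p = 0.0559). With limma on log2(TPM + 0.1) and log2(TPM + 1) it was lost as well (limma adjusted p = 0.0786 and 0.0935). Thus 6 of 12 alternative fits kept the call of rxrgb, and it did not pass the stricter adjusted p under 0.01. RXRA ENSDARG00000035127 was called lower at 0.257 and 0.382 CPM against 1.58 and 1.86 CPM (log2 ratio -2.40 ± 0.455 SE, edgeR adjusted p = 0.00673). This ID had only 8 and 15 counts in positive and 57 and 63 in negative libraries. It was not called without negative replicate 2 (-2.27). With limma on log2(TPM + 1) its log2 ratio was -0.92, still called. The more abundant RXRB (ENSDARG00000078954), RXRA ENSDARG00000057737 and rxrbb (ENSDARG00000002006) were not called, with log2 ratios of 0.45, 0.41 and 0.24 and edgeR adjusted p-values of 0.186, 0.351 and 0.616.

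Ranked by TPM, the order of the 14 IDs was different in the 2 fractions. In positive cells the highest were RARG ENSDARG00000034117 at 143.3 ± 17.9 TPM, RDH10 ENSDARG00000058730 at 125.6 ± 17.0 TPM and cyp26c1 at 119.5 ± 28.2 TPM (SD, n = 2 each), whose libraries overlapped. Then came aldh1a2 at 76.7 ± 14.8 TPM and raraa at 61.1 ± 0.0258 TPM, each apart from its neighbours. The next 7 ran from 22.9 TPM for RDH10 ENSDARG00000012369 down to 7.14 TPM for cyp26a1. RARG ENSDARG00000054003 at 3.38 ± 1.45 TPM and cyp26b1 at 2.97 ± 0.705 TPM were lowest and overlapped.

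In negative cells CRABP2 ENSDARG00000073978 was highest at 88.0 ± 21.7 TPM. It was followed by raraa at 58.8 ± 0.981 TPM and RARG ENSDARG00000034117 at 55.3 ± 9.99 TPM, which overlapped. Next came cyp26a1 at 45.1 ± 2.61 TPM, CRABP2 ENSDARG00000030449 at 42.4 ± 9.19 TPM and cyp26c1 at 42.2 ± 2.77 TPM, which overlapped as neighbours. The higher negative library of that CRABP2 ID (48.85 TPM) was also above the lower one of RARG ENSDARG00000034117 (48.19 TPM). The gene aldh1a2 ranked 8 of 14 there, at 24.8 ± 0.9 TPM, against 4 of 14 in positive cells.

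Of the other genes of the pathway, 60 further IDs were matched from lists of 66 entries, which also held the paralogues of the 4 shared names, and 51 passed the filter on low counts. Of these 51, 3 were called higher and 8 lower (21.6% called, against 17.1% of all genes tested), with a median log2 ratio of 0.05. Of the 8 lower calls, 4 were of genes of retinol and carotenoid supply, a list with 12 tested IDs and 0 called higher. That is 33.3% of the list called lower, against 8.07% of all genes tested. Over all genes tested, 9.02% were called higher. RBP7 (ENSDARG00000070486), a cellular retinol binding protein gene, was measured at 3.59 and 3.08 CPM in positive and 17.1 and 16.2 CPM in negative libraries (log2 ratio -2.32 ± 0.231 SE, edgeR adjusted p = 0.000242). STRA6 (ENSDARG00000051874), the gene of a retinol uptake receptor, was measured at 5.71 and 7.05 CPM against 20.0 and 16.3 CPM (log2 ratio -1.50 ± 0.231 SE, edgeR adjusted p = 0.00226). LRAT (ENSDARG00000037278), whose enzyme esterifies retinol for storage, had a log2 ratio of -1.66 ± 0.236 (SE, edgeR adjusted p = 0.00153). The related lratb.1 (ENSDARG00000096594) had one of -0.81 ± 0.174 (SE, edgeR adjusted p = 0.0123), and lost its call when negative replicate 1 (-0.84) or negative replicate 2 (-0.77) was left out. The most abundant retinol binding protein gene, rbp5 (ENSDARG00000101481), was not called, at 58.5 and 67.5 CPM against 49.2 and 58.9 CPM. The tested carotenoid genes of the list, BCO1, BCO2 ENSDARG00000055722 and SCARB1, were not called either (log2 ratios 0.57, 0.8 and -0.3).

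In the remaining lists, 13.3% of the tested dehydrogenase and reductase IDs, 5.88% of the coregulator IDs and both CRABP1 IDs were called, against 17.1% of all genes tested. Of 15 tested IDs of other dehydrogenases and reductases of retinol and retinaldehyde, 2 were lower, ALDH1A3 and a low ID of the reductase gene AKR1B1. AKR1B1 ENSDARG00000006215 lost its call without negative replicate 1 (edgeR adjusted p = 0.0958) and without negative replicate 2 (edgeR adjusted p = 0.0981). The 2 CRABP1 IDs moved apart: ENSDARG00000035904 had a log2 ratio of -0.88 (edgeR adjusted p = 0.0414) and ENSDARG00000045926, with 119 and 49 counts in positive and 16 and 8 in negative libraries, one of 2.87 (edgeR adjusted p = 0.0131). Both calls were lost without negative replicate 1 (-0.99 and 3.39) and without negative replicate 2 (-0.76 and 2.5), and the first was also lost without positive replicate 2 (-0.74). Of 17 coregulator IDs 1 was called, the coactivator gene NCOA3 (ENSDARG00000077404), at 81.5 and 96.5 CPM in positive and 56.0 and 50.1 CPM in negative libraries (log2 ratio 0.75 ± 0.176 SE, edgeR adjusted p = 0.019). NCOA3 lost its call when negative replicate 1 (0.83) or negative replicate 2 (0.68) was left out, and with limma on log2(TPM + 0.1) (limma adjusted p = 0.0968) and log2(TPM + 1) (limma adjusted p = 0.105).

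**Figure D3:**
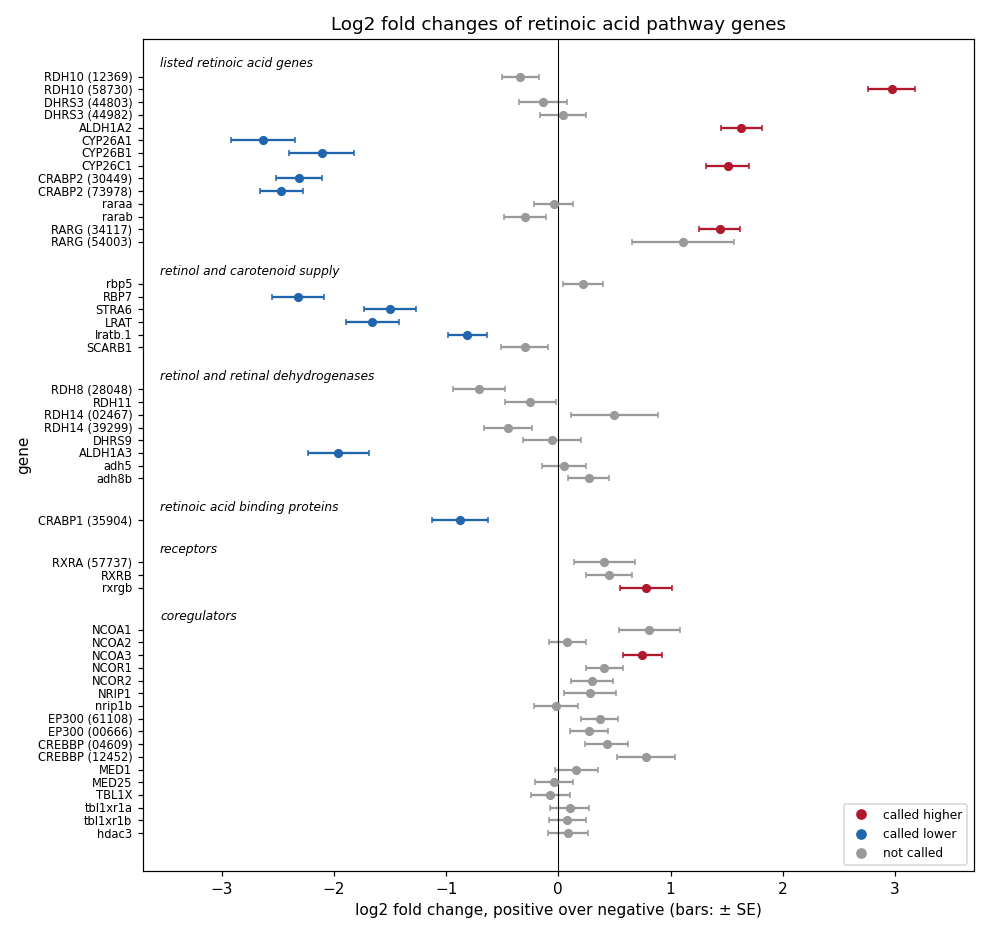
Log2 ratio (positive over negative, bars ± SE) of the 14 IDs and of the 35 other pathway IDs with a mean of at least 5 CPM, grouped by role. Red is called higher, blue called lower and grey not called. The supply group has 4 blue points and no red one, and coregulators lie between -0.07 and 0.81.

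Genes known in vertebrate embryos to respond to retinoic acid were examined beside the pathway. Of 24 IDs tested, 3 were higher and 13 lower in positive cells, with a median log2 ratio of -1.50. That is 66.7% called, against 17.1% of all genes tested. The list gives no direction of response, so these counts do not measure retinoic acid signalling. The genes described above, dhrs3a and cyp26a1 included, were kept off it. Neither DHRS3 ID was called, whereas cyp26a1 was lower (log2 ratio -2.63). Many of the 24 IDs on the list are Hox genes, which also mark positions along the body axis, and they are described by paralogue group. Both IDs of group 1 on the list were higher. The gene hoxb1a (ENSDARG00000008174) was measured at 73.9 and 54.8 CPM in positive and 18.8 and 16.5 CPM in negative libraries (log2 ratio 1.87 ± 0.205 SE, edgeR adjusted p = 0.000385). The log2 ratio of hoxb1b was 0.94. The call of hoxb1b was lost without negative replicate 1 (0.90, edgeR adjusted p = 0.0579). All 9 listed IDs of groups 4 to 6 were lower, from -2.41 to -1.53. Among these are the 2 HOXB5 IDs, with -2.19 and -2.25. HOXB4 was not called without negative replicate 1 (-1.42), and HOXC5 not without negative replicate 1 (-2.17) or negative replicate 2 (-2.20). Of the 4 IDs of groups 2 and 3, HOXD3 was lower and 3 were not called.

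Among the 9 responsive IDs outside the Hox clusters, 1 was higher and 3 were lower. The homeobox gene meis3 was higher at 0.97 ± 0.179 (SE, edgeR adjusted p = 0.00582), a call lost when negative replicate 2 was left out (0.91). The caudal-type gene cdx4, a gene of the posterior embryo, was lower, at 67.7 and 65.5 CPM in positive and 389.1 and 462.5 CPM in negative libraries (log2 ratio -2.68 ± 0.187 SE, edgeR adjusted p = 4.5e-05). The nuclear receptor genes NR2F2 and nr2f5 were lower as well, at -1.76 and -1.48. The 2 NR2F1 IDs were not called (0.02 and -0.31), and their positive replicates differed, at 49.3 and 23.1 CPM for ENSDARG00000052695.

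**Figure D4:**
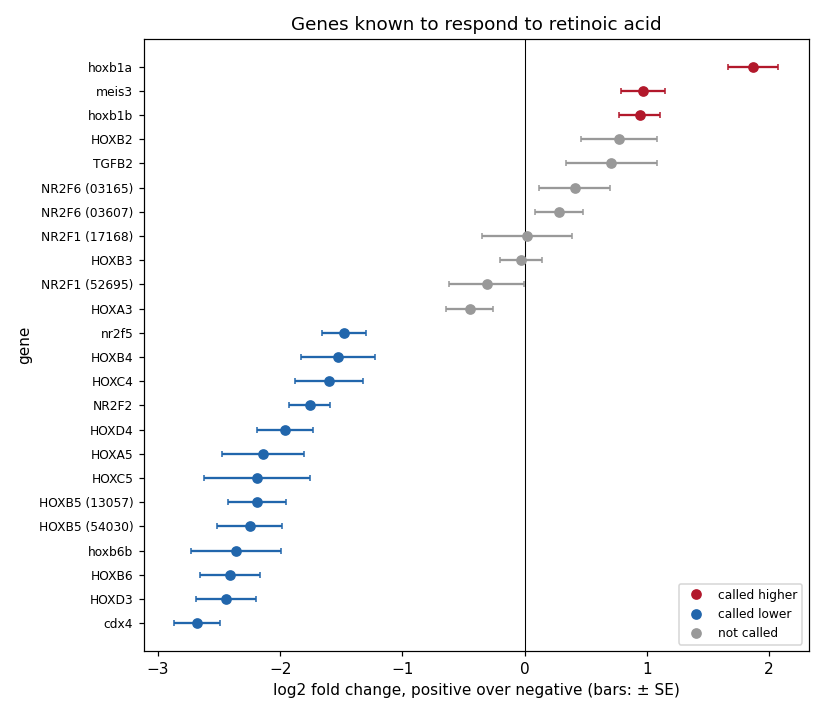
Log2 ratio (positive over negative, bars ± SE) of 24 gene IDs known to respond to retinoic acid, in order of their value. Red is called higher, blue called lower and grey not called. The 3 red points are hoxb1a, meis3 and hoxb1b, and Hox genes of groups 4 to 6 lie between -2.41 and -1.53.

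Marker lists of other tissues that the sorted cells could hold were read beside these results. For comparison, 9.02% of all genes tested were called higher and 8.07% lower. Of 13 somite and presomitic IDs, 11 were lower and 0 higher in positive cells, with summed levels of 167 and 121 TPM in the positive and 965 and 935 TPM in the negative libraries. All 10 eye field IDs were lower, with sums of 62.4 and 57.9 TPM against 221 and 228 TPM. All 8 IDs for the neural plate and neurons were lower as well. Tail bud and notochord markers had 6 of 11 IDs lower and 2 higher, with sums of 128 and 148 TPM against 208 and 208 TPM. Hindbrain markers had 3 of 6 IDs higher and 0 lower, with sums of 277 and 336 TPM against 244 and 199 TPM. The 3 were hoxb1a (also on the list of responsive genes), GBX2 (log2 ratio 1.49) and EPHA4 ENSDARG00000010767 (2.09), whereas EGR2 was not called (-0.35, edgeR adjusted p = 0.409). Endoderm markers had 2 of 6 IDs higher and 1 lower, with sums of 185 and 200 TPM against 63.6 and 56.5 TPM. The higher ones were FOXA2 and GATA5. FOXA2 is also 1 of the 2 higher IDs on the tail bud and notochord list, and GATA5 is also on the cardiac list. No ID held by the endoderm list alone was called higher. Endothelial markers had 4 of 7 IDs higher and 1 lower: FLI1, kdrl, cdh5 and TIE1 were higher (log2 ratios 1.38, 2.03, 2.33 and 1.99) and LMO2 lower (-0.86), with sums of 834 and 1130 TPM in the positive and 1130 and 1010 TPM in the negative libraries. Of 7 blood IDs, 6 were lower and SPI1 was higher, with sums of 371 and 377 TPM against 2680 and 2480 TPM. All 6 pronephros IDs were lower, with sums of 23.1 and 22.6 TPM against 93.6 and 80.2 TPM. Neural crest markers had 3 of 7 IDs lower and 1 higher, with sums of 74.0 and 60.0 TPM against 141 and 121 TPM. Epidermal markers had 1 of 7 IDs higher and 1 lower, with sums of 1850 and 1610 TPM against 1920 and 1590 TPM. No marker on these lists was at 0 in all 4 libraries. The part of these cell types in the changes of aldh1a2, the CYP26 genes and the CRABP2 IDs was not tested.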

How the data were processed

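The deposited table held, per gene ID, an estimated count, rounded by the authors, and a log2(TPM + 1) value, per the file headers. Salmon 1.2.1 is named in the submitters' processing notes, beside BWA 0.7.12-r1039 and bedtools. Genome builds Zv9 and GRCz11 are both named there, so no coordinates are given. The use of strand is not given in the sources used here. Libraries were primed on the poly(A) tail from little RNA, per the labels' protocols, without mention of molecular identifiers, so counts need not be independent molecules and coverage can depend on length. TPM was recovered from the deposited log2 values.

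Counts, with no further rounding, were tested with edgeR 4.0.16 in R 4.3.3 (quasi-likelihood F test, TMM, filterByExpr with a minimum count of 10 and total of 15, Benjamini-Hochberg over 19084 genes). Each SE is the absolute log2 ratio over the root of F. CPM uses TMM-scaled library sizes. The procedure was tested on simulated data. Names were matched without case, then without the paralogue letter, then by a synonym held by 1 gene of RefSeq assembly GRCz12tu. Of 90 entries on the other gene lists, 5 were not matched. A few genes of these and the marker lists are not reported here and stay out of the lists' counts and sums. Named outside the 10 symbols were the receptors and genes called at a mean of at least 5 CPM. A few below that level, genes not called and markers were named after their values were seen. The members and lists were chosen with earlier results of these data known. Alternatives were DESeq2 1.42.0, its size factors, upper-quartile factors, 2 other filters, limma 3.58.1 on log2(TPM + 1) and log2(TPM + 0.1), a block for the replicate number, each library left out, and an adjusted p under 0.01.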

Additional observations from a re-analysis of the deposited data

How the results depend on the processing

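Under the 13 alternatives the 8 called IDs stayed called in the same direction in each fit, aldh1a2 with log2 ratios from 1.49 to 1.78, cyp26a1 from -3.12 to -2.24, cyp26b1 from -2.42 to -1.74, cyp26c1 from 1.32 to 1.71 and RDH10 ENSDARG00000058730 from 2.79 to 3.16. The 14 IDs had 4 to 5 calls higher and 4 to 4 lower with a library left out. The small changes of 3 uncalled genes reversed: raraa was 0.06 and 0.05 with limma on log2(TPM + 0.1) and log2(TPM + 1), and from -0.13 to 0.08 with a library left out, above 0 without negative replicate 2 (0.04) and positive replicate 2 (0.08). DHRS3 ENSDARG00000044982 was -0.06 with upper-quartile factors, which moved the median of all genes to -0.109, and ran from -0.15 to 0.23 with a library left out, below 0 without negative replicate 1 (-0.04) and positive replicate 2 (-0.15). DHRS3 ENSDARG00000044803 ran from -0.32 to 0.05, above 0 without positive replicate 2. Over all genes, 852 to 2446 were higher and 747 to 1846 lower with a library left out, where a lone library is assumed to vary like the other group, and 966 and 784 at an adjusted p under 0.01. Of the other pathway genes, 0 to 7 were higher and 5 to 10 lower with a library left out, 1 was higher with limma on either scale, and 0 were higher and 5 lower at 0.01, a stricter threshold. For the other settings the cause was not tested. Deviations of same-numbered libraries from their group means correlated at -0.092 over genes. With 2 libraries per group, the deviations within a group mirror each other, so both replicate numbers give the same value. Whether equal replicate numbers mark a shared sort cannot be told from it. With the replicate number as a block, 4 of the 14 IDs were higher and 4 lower, over all genes 1762 were higher and 1561 lower, and the calls of rxrgb and CRABP1 ENSDARG00000035904 were lost. Depth limits RARG ENSDARG00000054003, at 33 to 118 counts. It also limits RXRA ENSDARG00000035127, at 8 to 63 counts, and CRABP1 ENSDARG00000045926, at 8 to 119 counts.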
